A study of Mus musculus with 12 samples.

Results

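Collagen genes were followed in the brains of mice that lack Tert, the gene for the catalytic subunit of telomerase, and in wild-type mice. The members are the protein-coding genes whose symbol is Col, a number, the letter a and a number, whose mean in the 6 libraries of either tissue reached 10 normalized counts. Of 44 such symbols 43 qualified, out of 55487 gene rows, and only Col10a1 stayed below that minimum. They comprise 11 fibrillar collagens, 6 basement membrane collagens and 26 of other types. RNA sequencing of cerebral cortex and hippocampus from C57BL/6 mice gave 12 libraries, with 3 wild-type (labelled mTert WT) and 3 knockout libraries (labelled mTert KO (G1)) per tissue. The sources used here do not give the age or sex of the mice. Nor do they say whether the libraries of a group come from different mice, so p-values measure the spread between these libraries, which may be technical.

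Collagens are secreted or membrane-bound proteins in which chains with a glycine-rich repeat wind into a triple helix. Fibrillar collagens build tensile fibrils, which in brain lie mainly in the meninges and around larger vessels. Type IV collagens form the sheet-like network of basement membranes under the endothelium, the pericytes and the pia. Fibril-associated and transmembrane collagens decorate fibrils or cell surfaces, and some of them are made by neurons.

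Tert, the targeted gene, had 206, 105 and 241 normalized counts in wild-type cortex and 0 in each knockout library. In hippocampus it had 147, 184 and 128 in wild type and 0, 6.31 and 0 in knockout (limma, Benjamini-Hochberg adjusted p = 0.00116 in cortex and 0.000972 in hippocampus). A value of 0 allows up to 3 reads. The libraries hold between 68424934 and 86639113 reads, so counting error was small for most collagen genes. No marker of excitatory or inhibitory neurons, astrocytes, oligodendrocytes or microglia was at 0 in any library. Cortex wild-type library 2 stood apart. Its chi-square per gene was 102 and 93.9 against the other two wild-type cortex libraries, which differed from each other by 9.54. It was the lowest of the 6 cortex libraries for 23 of the 43 collagen genes (53.5%), against 32.7% of all genes tested. In hippocampus, wild-type libraries 1 and 2 stood away from each other (chi-square per gene 48.8), with 15.5 and 20.4 between them and wild-type library 3. Hippocampus results of collagen genes that rest on either are given without each. For the marker and pathway lists only the fit without wild-type library 2 was counted, and none without wild-type library 1.

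In cortex, 3 collagen genes were higher in the knockout (Col11a1, Col24a1 and Col6a1) and 1 was lower (Col6a3). These are 6.98% and 2.33% of the members, against 1.28% of all genes tested called higher and 0.661% called lower. A gene was called at an adjusted p below 0.05 in a limma fit on log2(normalized count + 1) over all genes tested. In hippocampus 1 collagen gene was higher (Col11a2, against a background of 14.1%) and 7 were lower, which are Col19a1, Col12a1, Col5a1, Col20a1, Col25a1, Col11a1 and Col5a2. The 7 lower genes are 16.3% of the members, close to the 15.1% of all genes that were called lower there. Among protein-coding genes with exons in the same length range the share called lower was 17.9%. Across both tissues 11 members were called at least once, 1 (Col11a1) in both and 32 in neither.

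**Figure D1:**
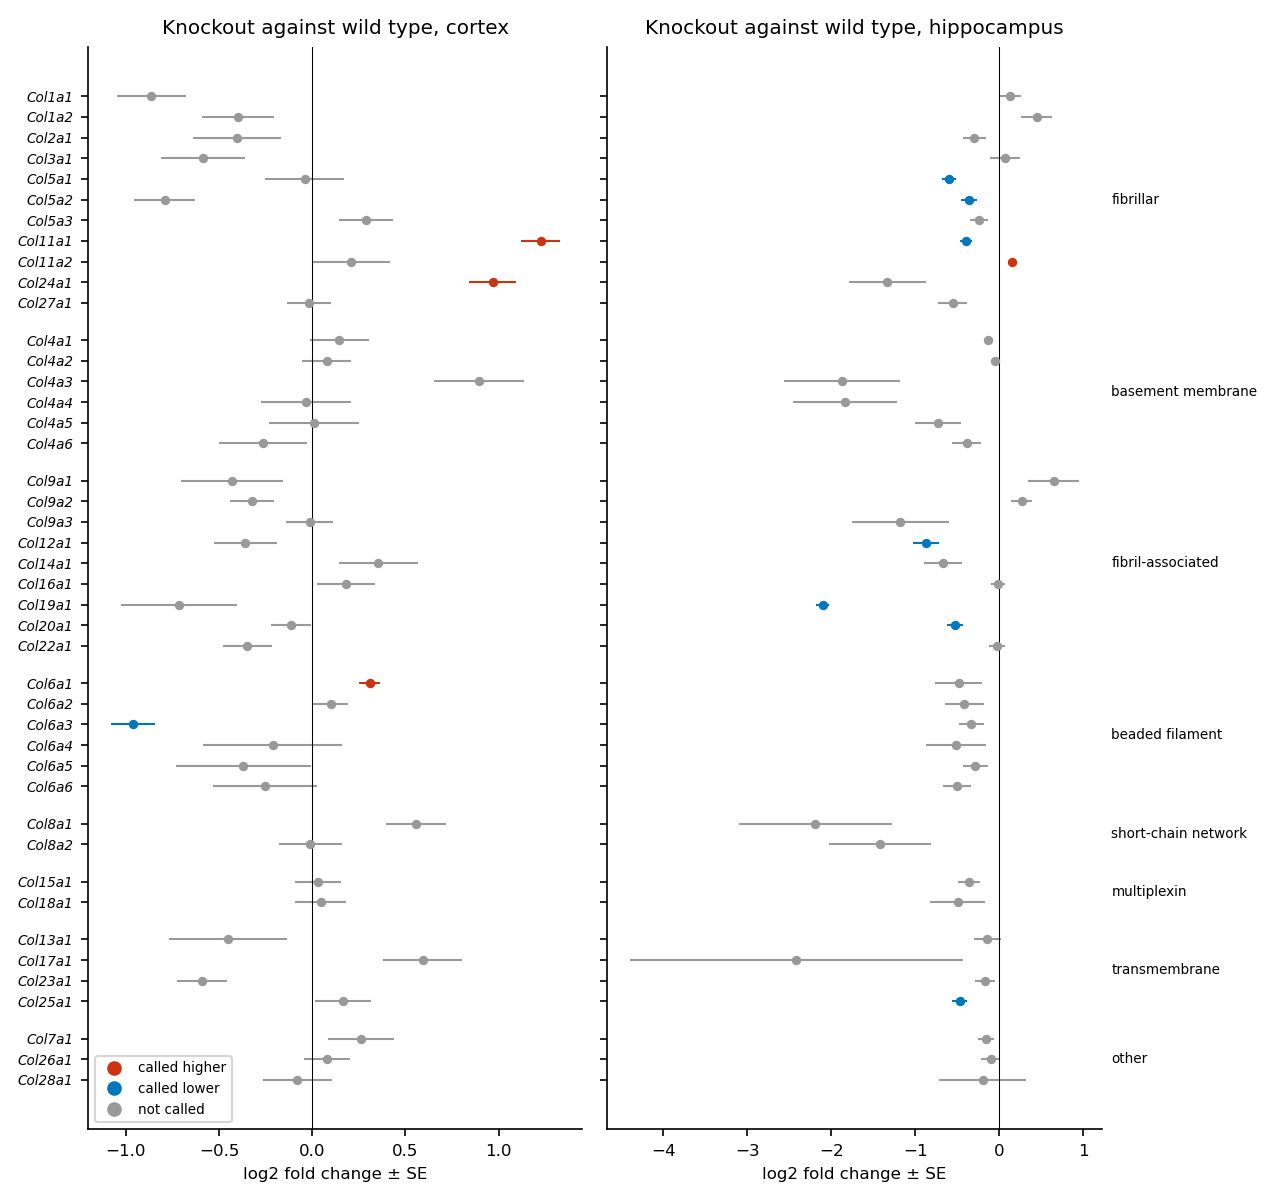
Log2 fold change of knockout over wild type ± SE for each of the 43 collagen genes, by class, in cortex and in hippocampus (the horizontal scales differ); red points were called higher, blue points lower and grey points were not called. The 4 cortex calls lie in the fibrillar and beaded filament classes, and 37 of the 43 hippocampus values are negative.

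The median log2 fold change of the 43 members was -0.02 in cortex, beside -0.01 for all genes tested. In hippocampus it was -0.38, beside 0.02 for all genes tested and 0.01 for protein-coding genes of the members' length range. Of the hippocampus values 37 were negative and 6 positive. The summed collagen signal was 48951, 36659 and 49992 normalized counts in wild-type cortex and 48315, 45822 and 47386 in knockout cortex. Only wild-type library 2 lay apart in that sum, below every other cortex library. In hippocampus the sum was 62187, 46166 and 53286 in wild type and 41937, 44220 and 42541 in knockout. The hippocampus sums did not overlap between genotypes, and wild-type library 2 came nearest to the knockout range.

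Per kb of merged exon, the highest collagen level in cortex belonged to Col6a1, with a mean of 1323 normalized counts per kb over the 6 libraries. Col4a2 followed with 998, Col5a1 with 592, Col4a1 with 582 and Col11a2 with 414. In hippocampus Col4a2 led with 1376 normalized counts per kb, before Col4a1 with 861, Col11a2 with 751, Col9a3 with 626 and Col6a1 with 308. The genes for the ubiquitous type IV chains thus stood in the top 4 of both tissues. The lowest levels were 5.07 normalized counts per kb for Col4a3 in cortex and 5.59 for Col28a1 in hippocampus. The tables of the tissues were scaled separately, so levels are ordered within a tissue only.

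The fibrillar class held 2 cortex calls, both higher, and 4 hippocampus calls, 1 higher and 3 lower. Col11a1 (ENSMUSG00000027966, chr3:114030540-114220718, GRCm38, plus strand) encodes a chain of type XI collagen, which nucleates thin fibrils and is best known from cartilage. It had 897, 748 and 932 normalized counts in wild-type cortex and 2072, 1855 and 2082 in knockout cortex. Every knockout library held about the same level, and the lowest of them was well above the highest wild-type library. The log2 fold change was 1.23 ± 0.10 (SE, n = 3 per group, limma adjusted p = 0.00529). Without knockout library 3 the change was 1.20 and the call was lost, at a limma adjusted p of 0.0592. The other alternatives kept the call, 17 of 18, with adjusted p-values down to 1.80e-22 (DESeq2).

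In hippocampus Col11a1 moved the other way. It had 2221, 2632 and 2452 normalized counts in wild type and 1791, 1960 and 1800 in knockout. The groups did not overlap, with all knockout libraries low, and the log2 fold change was -0.39 ± 0.07 (limma adjusted p = 0.00611). Once the trend of fold change along exonic length was removed, the value was -0.02 and the call was lost. The difference between the tissues was itself tested, with an interaction term over the 12 libraries. The knockout effect on Col11a1 in hippocampus minus that in cortex was -1.62 ± 0.13 on the log2 scale (limma adjusted p = 0.000318). With the length trend removed it was -1.24 and still called.

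Col24a1 (ENSMUSG00000028197, chr3:145292472-145552011, plus strand), a fibrillar collagen described in developing bone, also rose in cortex. It had 696, 602 and 826 normalized counts in wild-type cortex and 1502, 1342 and 1290 in knockout cortex. All knockout libraries were above all wild-type libraries, and the log2 fold change was 0.97 ± 0.13 (limma adjusted p = 0.0205). The call held in 11 of 18 alternatives. Leaving out knockout library 1, 2 or 3 gave changes of 0.91, 0.99 and 1.01 with limma adjusted p-values of 0.0973, 0.135 and 0.115, and leaving out wild-type library 1 gave 0.96 with 0.0688.

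In hippocampus Col24a1 was not called, at a log2 fold change of -1.33 ± 0.46 (limma adjusted p = 0.0657). It had 255, 83.5 and 125 normalized counts in wild type and 92.8, 45.1 and 38.7 in knockout. The groups overlapped, since wild-type library 2 fell below knockout library 1. Its effect in hippocampus minus that in cortex was -2.30 ± 0.53 (limma adjusted p = 0.0423). Col11a1 and Col24a1 were the only 2 members called by the interaction, against 3.02% of all genes tested. Next in order came Col1a1, with a difference of 0.99 (limma adjusted p = 0.0517), and Col19a1, with -1.39 (limma adjusted p = 0.0575).

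Of the marker lists, that of striatal neurons, the projection neurons of the tissue beneath the cortex, had the largest median change in cortex (1.57). Of those 14 markers 13 were called higher in knockout cortex and 0 lower, against 1.28% and 0.661% of all genes. Their sum was 25742 to 26015 normalized counts in wild type. In the knockout it was 53953, 83570 and 68203, highest in library 2. Col11a1 and Col24a1 were not highest in that library, and the part of striatal tissue in their change was not tested. No marker of that list was at 0 in any cortex library. In bulk tissue, fewer cells of a type and less RNA per cell cannot be told apart.

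**Figure D2:**
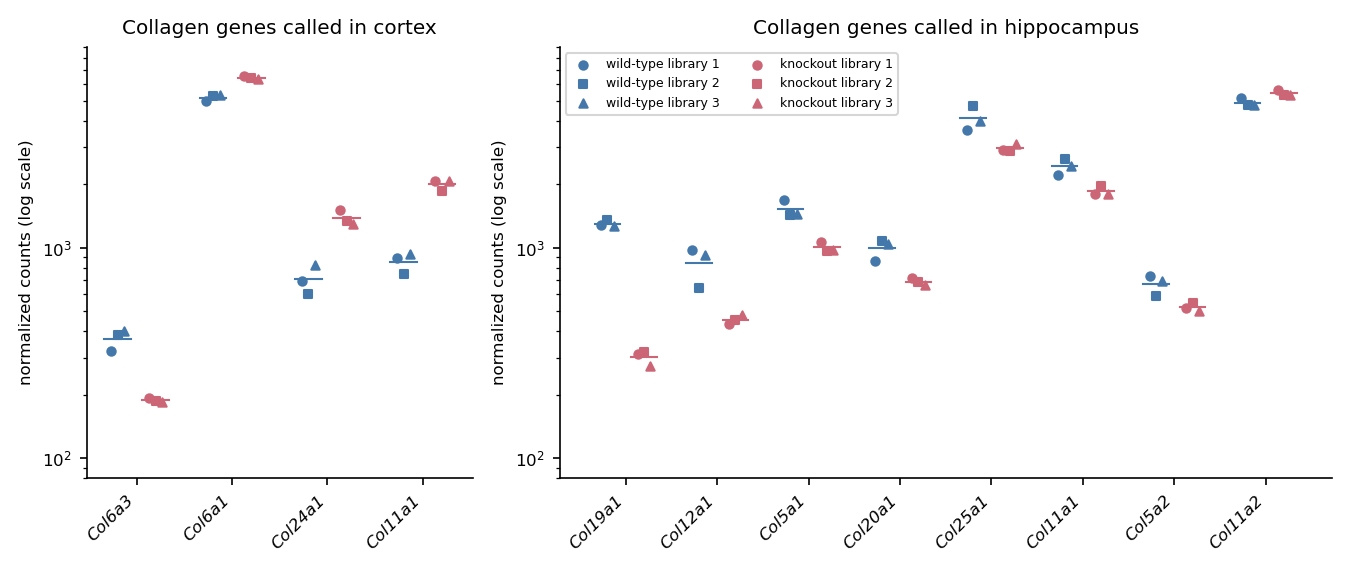
Normalized counts (log scale) of each collagen gene called in cortex (left) and in hippocampus (right), by library, with short lines at the group means. Col11a1 appears in both panels, higher in the 3 knockout cortex libraries and lower in the 3 knockout hippocampus libraries.

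Col5a1 and Col5a2 encode the chains of type V collagen, which sets the diameter of type I fibrils, and both fell in hippocampus. Col5a1 had 1691, 1425 and 1445 normalized counts in wild-type hippocampus and 1066, 961 and 980 in knockout. The groups lay clearly apart, with a log2 fold change of -0.60 ± 0.08 (limma adjusted p = 0.00161) that all 18 alternatives kept. Its exons overlap antisense gene models by 99 and 113 bases, and the sources used here do not say how reads there were assigned. In cortex, where it was the highest fibrillar collagen per kb, Col5a1 had 5934, 3482 and 6086 normalized counts in wild type and 5376, 4389 and 4904 in knockout. Wild-type library 2 was the lowest of the 6 and the groups overlapped, at a log2 fold change of -0.04 ± 0.21.

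Col5a2 had 735, 589 and 694 normalized counts in wild-type hippocampus and 517, 546 and 500 in knockout. All knockout libraries were below all wild-type libraries, at a log2 fold change of -0.36 ± 0.10 (limma adjusted p = 0.0252). The call held in 9 of 18 alternatives. It was lost without knockout library 1, 2 or 3 (-0.36, -0.40 and -0.33, limma adjusted p = 0.0710, 0.0543 and 0.0845) and without wild-type library 1 or 3 (-0.30 and -0.34, limma adjusted p = 0.0598 and 0.0962). With the length trend removed the value was -0.13, which moved it by more than any library did. In cortex the log2 fold change was -0.79, not called (limma adjusted p = 0.0631), and without wild-type library 2 it was -0.96 and called. Without wild-type library 1 it was -0.70 and not called.

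Col11a2, the second type XI chain gene, was the highest fibrillar collagen per kb in hippocampus. It had 5142, 4753 and 4771 normalized counts in wild-type hippocampus and 5621, 5333 and 5337 in knockout. The groups did not overlap, but the margin was small, at a log2 fold change of 0.15 ± 0.05 (limma adjusted p = 0.0443). The call held in 6 of 18 alternatives. Leaving out knockout library 1, 2 or 3 gave limma adjusted p-values of 0.138, 0.0927 and 0.0868, and leaving out wild-type library 2 or 3 gave 0.0760 and 0.157. The 5 changes lay between 0.13 and 0.16.

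The genes of the main body fibrils, Col1a1, Col1a2 and Col3a1, were called in neither tissue with all libraries. In cortex Col1a1 had 765, 1192 and 994 normalized counts in wild type and 618, 447 and 545 in knockout. The groups did not overlap and the log2 fold change was -0.86 ± 0.18 (limma adjusted p = 0.070). Without wild-type library 2 it was -0.71 and called, and without wild-type library 1 it was -1.03 and not called. Col1a2 had 1208, 1103 and 1197 normalized counts in wild-type cortex and 1160, 652 and 919 in knockout, with a log2 fold change of -0.40 ± 0.19. The groups overlapped through knockout library 1. Col3a1 had 135, 139 and 165 normalized counts in wild-type cortex and 123, 70.4 and 104 in knockout, at -0.59 ± 0.23. All its knockout values were below the wild-type ones.

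These 3 genes shared 1 order among the knockout cortex libraries, with library 1 highest and library 2 lowest. The 18 markers of meningeal and perivascular fibroblasts, none of which is a collagen, followed the same order. Their sum was 15171 to 16163 normalized counts in wild-type cortex and 14717, 10111 and 12277 in knockout. Among the wild-type cortex libraries, library 2 was lowest in that sum and highest for Col1a1. The share of all genes in the knockout order was not counted. Of the 18 markers 1 (Slc6a13) was called lower and 0 higher (5 and 0 without wild-type library 2), at a median log2 fold change of -0.67, and Slc22a2 was at 0 in at least 1 library. Of all genes 0.661% were called lower with all libraries, and 21.4% in either direction without wild-type library 2. The part of fibroblasts in the collagen values was not tested.

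In hippocampus Col1a1 had 986, 938 and 945 normalized counts in wild type and 859, 1258 and 1062 in knockout, with a log2 fold change of 0.13 ± 0.13. Col1a2 had 1496, 925 and 1233 in wild type and 1373, 1951 and 1622 in knockout, at 0.45 ± 0.19. It was called higher with the length trend removed (0.81) and without wild-type library 1 (0.61). Leaving out wild-type library 2 gave 0.26, not called. Col3a1 had 341, 264 and 324 in wild type and 254, 404 and 326 in knockout, at 0.07 ± 0.18. All 3 overlapped between the groups and were highest in knockout library 2. The fibroblast marker sum was 18150, 26185 and 22020 normalized counts in the knockout hippocampus libraries, the same order. The share of all genes in that order was not counted. In wild type the marker sum was 36735, 18136 and 27240, and 0 of the 18 markers were called in either direction.

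**Figure D3:**
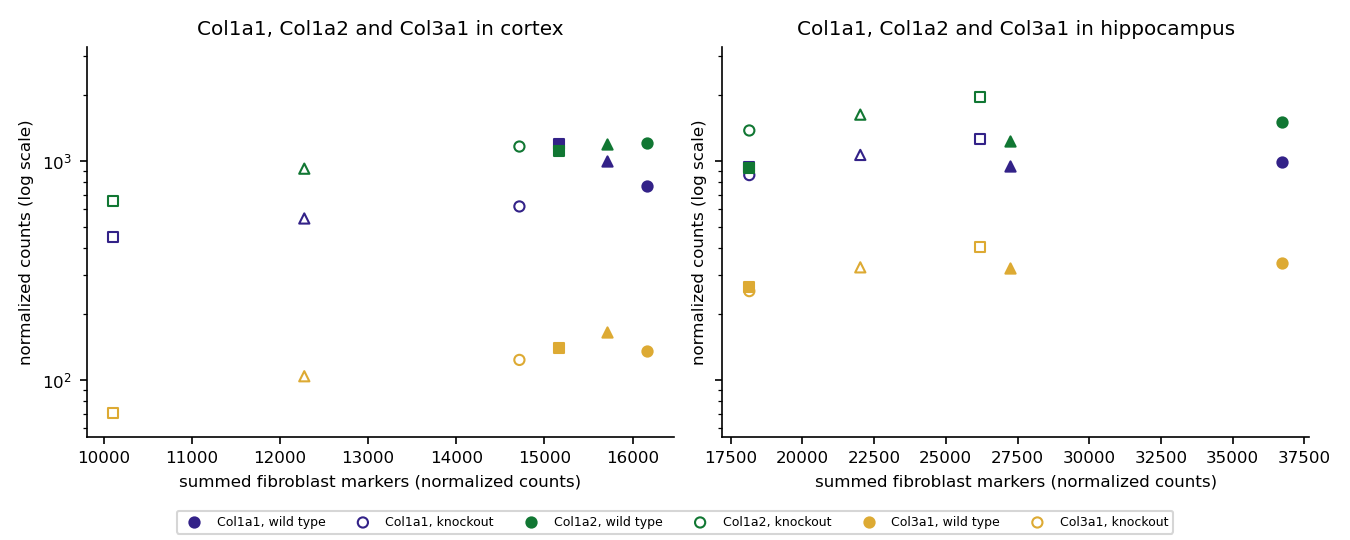
Normalized counts of Col1a1, Col1a2 and Col3a1 (log scale) against the summed fibroblast markers of the same library (normalized counts), in cortex and hippocampus; filled symbols are wild type, open symbols knockout, and circles, squares and triangles are libraries 1, 2 and 3. In knockout cortex the square, library 2, is lowest on both axes, and in knockout hippocampus it is highest on both. Among the wild-type cortex libraries the square is lowest in the marker sum and highest for Col1a1.

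The remaining fibrillar members were called in neither tissue. Col2a1, Col5a3 and Col27a1 lay at -0.41, 0.29 and -0.02 in cortex and at -0.30, -0.24 and -0.55 in hippocampus (log2 fold change). Col2a1, the cartilage chain, was called lower in cortex without wild-type library 2 (-0.65), and not without wild-type library 1 (-0.31). Col27a1 and Col5a3 were called lower in hippocampus without wild-type library 2 (-0.72 and -0.32), and not without wild-type library 1 (-0.38 and -0.15).

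Of the 6 basement membrane collagens, 0 were called in either tissue. Their genes lie in head-to-head pairs. The windows from 250 bases before to 50 after the annotated start (RefSeq, GRCm38.p6) are printed for such pairs because the 2 genes of a pair can be compared library by library. In Col4a1 (chr8:11312777-11313076, minus strand) and Col4a2 (chr8:11312555-11312854, plus strand) the capitals mark the 78 bases that both windows hold, each as the reverse complement of the other. In Col4a4 (chr1:82586800-82587099, minus strand) the capitals mark the 73 bases from its own start to that of Col4a3.
Col4a1: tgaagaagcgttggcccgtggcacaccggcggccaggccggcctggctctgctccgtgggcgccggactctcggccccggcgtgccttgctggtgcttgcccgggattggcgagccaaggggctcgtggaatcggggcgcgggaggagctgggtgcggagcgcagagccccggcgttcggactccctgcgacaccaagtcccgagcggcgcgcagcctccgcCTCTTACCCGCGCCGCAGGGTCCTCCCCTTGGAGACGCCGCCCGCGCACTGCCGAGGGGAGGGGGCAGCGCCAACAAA
Col4a2: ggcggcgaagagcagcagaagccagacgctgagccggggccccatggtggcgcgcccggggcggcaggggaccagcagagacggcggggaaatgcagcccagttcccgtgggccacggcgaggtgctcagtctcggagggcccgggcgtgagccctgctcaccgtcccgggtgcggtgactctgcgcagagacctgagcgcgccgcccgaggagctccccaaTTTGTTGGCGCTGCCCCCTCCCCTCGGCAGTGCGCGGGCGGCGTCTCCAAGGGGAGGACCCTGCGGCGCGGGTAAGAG
Col4a4: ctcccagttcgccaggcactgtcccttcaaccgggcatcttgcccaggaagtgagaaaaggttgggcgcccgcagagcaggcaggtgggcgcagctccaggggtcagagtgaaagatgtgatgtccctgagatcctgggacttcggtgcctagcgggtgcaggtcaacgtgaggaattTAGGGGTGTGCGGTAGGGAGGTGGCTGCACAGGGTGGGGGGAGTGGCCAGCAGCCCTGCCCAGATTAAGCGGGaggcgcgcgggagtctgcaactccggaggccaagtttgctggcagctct

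The shared stretch of Col4a1 and Col4a2 is 73.1% G and C. Searched on both strands, with each motif counted apart from any overlap with another, the Col4a1 window holds 1 CCAAT box (CCAAT) and 1 GC box (GGGCGG). The Col4a2 window holds 1 and 3, and the Col4a4 window holds 0 of either. None of these windows holds a TATA box (TATAAA). Among the 37 windows of the 34 members found in the table, the GC box occurred in 62.2%, the CCAAT box in 35.1% and the TATA box in 10.8%. Among all 32851 windows these shares were 35.7%, 37.4% and 13.6%. A match is a description of letters only.

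Col4a1 and Col4a2 encode the chains of the ubiquitous type IV network, mutated in cerebral small vessel disease. Their gene models overlap by 22 bases. Col4a1 had 4730, 3108 and 4661 normalized counts in wild-type cortex and 4651, 4392 and 4539 in knockout. Col4a2 had 7131, 5119 and 7158 in wild-type cortex and 6473, 6828 and 6942 in knockout. The lowest library for both was wild-type library 2, all other libraries lay close together, and the groups overlapped. The log2 fold changes were 0.15 ± 0.16 and 0.08 ± 0.13, and without that library -0.05 and -0.08, so the sign of these uncalled values turned.

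In hippocampus Col4a1 had 7010, 6402 and 6720 normalized counts in wild type and 5895, 6404 and 6134 in knockout, at a log2 fold change of -0.13 ± 0.05 (limma adjusted p = 0.0931). Col4a2 had 9590, 9101 and 9039 in wild type and 8784, 9388 and 8730 in knockout, at -0.04 ± 0.04. Both were nearly level over the 6 libraries and overlapped between the groups. The ratio of Col4a2 to Col4a1 was 1.56 ± 0.07 (SD, n = 3) in wild-type cortex and 1.49 ± 0.09 in knockout, and 1.38 ± 0.04 and 1.46 ± 0.03 in hippocampus. Endothelial markers, whose cells lie on this network, gave 3 called higher and 0 lower of 15 in cortex and 0 of 15 in hippocampus. With all libraries 1.28% of all genes were called higher in cortex. Without wild-type library 2 of each tissue, 8 markers were higher and 1 lower in cortex, and 0 were higher and 10 lower in hippocampus. In those fits 21.4% of all genes were called in either direction in cortex, and 17.6% lower in hippocampus. The endothelial sum lay between 26435 and 27352 normalized counts in wild-type cortex and between 32465 and 34974 in knockout, and no marker was at 0. In hippocampus it was 60407, 28315 and 44176 in wild type and 36895 to 37570 in knockout.

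Col4a3, Col4a4 and Col4a5 form the type IV network of the kidney glomerulus, the one mutated in Alport syndrome. In hippocampus Col4a3 had 502, 55.7 and 259 normalized counts in wild type and 54.7, 49.6 and 52.2 in knockout. Its partner Col4a4, whose start lies 71 bases away, had 673, 103 and 451 in wild type and 114, 78.5 and 74.5 in knockout. Wild-type libraries 1 and 3 were high and wild-type library 2 was near the knockout level in both genes. The log2 fold changes of -1.88 ± 0.69 and -1.84 ± 0.62 were not called (limma adjusted p = 0.0786 and 0.0606). Without wild-type library 2 they were -2.77 and -2.64, and called. Without wild-type library 1 they were -1.19 and -1.29, and not called.

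The pair did not keep step in cortex. Col4a3 had 37.7, 28.1 and 39.2 normalized counts in wild-type cortex and 56.4, 80.7 and 61.0 in knockout, with no overlap, at a log2 fold change of 0.90 ± 0.24 (limma adjusted p = 0.119). Col4a4 had 66.4, 53.1 and 84.2 in wild type and 53.6, 65.2 and 79.2 in knockout, at -0.03 ± 0.24. The ratio of Col4a4 to Col4a3 was 1.76, 1.89 and 2.15 in wild-type cortex and 0.950, 0.808 and 1.30 in knockout. The ratios did not overlap, no test was run on them, and Col4a3 shares 563 exonic bases with an antisense gene model. In hippocampus the ratio was 1.64 ± 0.27 in wild type and 1.70 ± 0.35 in knockout. Col4a5 and Col4a6, the remaining head-to-head pair with starts 1308 bases apart on chromosome X, lay at 0.01 and -0.26 in cortex and at -0.73 and -0.38 in hippocampus.

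Among the 9 fibril-associated collagens, 0 were called in cortex and 3 were lower in hippocampus. Col19a1 (ENSMUSG00000026141, chr1:24261890-24587472, minus strand) encodes a collagen that hippocampal interneurons make and that is needed for the formation of inhibitory synapses. It had 1279, 1358 and 1265 normalized counts in wild-type hippocampus and 313, 320 and 275 in knockout. Libraries of 1 genotype were close together, and the groups lay far apart. The log2 fold change of -2.10 ± 0.08 (limma adjusted p = 1.62e-05) was the lowest of the 8 called in hippocampus, and all 18 alternatives kept it, between -2.14 and -2.01.

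Of 9 markers of inhibitory neurons 5 were called higher in knockout hippocampus and 0 lower. Their sum was 45516 to 53306 normalized counts in wild type and 60978 to 62769 in knockout, and none was at 0 in any library. Markers of excitatory neurons (5 of 9), oligodendrocytes (5 of 8) and microglia (8 of 9) were also called higher there, and 0 lower. Of 9 astrocyte markers 4 were higher and 1 lower, and of 7 oligodendrocyte precursor markers 1 was higher and 0 lower. Of all genes tested 14.1% were called higher in hippocampus and 15.1% lower. The part of interneurons in the Col19a1 change was not tested. In cortex Col19a1 had 2055, 869 and 2011 normalized counts in wild type and 932, 911 and 956 in knockout. Wild-type library 2 was the lowest of the 6 and the other two wild-type libraries were above all others. The log2 fold change was -0.71 ± 0.31, not called (limma adjusted p = 0.278), and without that library it was -1.12 and called. Col9a1, whose gene ends 9205 bases from Col19a1 on the same chromosome, was called in neither tissue, at -0.43 in cortex and 0.65 in hippocampus.

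Col12a1, a collagen of tendon and of other dense tissue that binds type I fibrils, had 978, 640 and 926 normalized counts in wild-type hippocampus and 435, 452 and 479 in knockout. The knockout libraries were close together and below all wild-type libraries. The log2 fold change was -0.87 ± 0.15 (limma adjusted p = 0.00539). With the length trend removed it was -0.41 and not called. Col12a1 has the longest exons of the members, 15.2 kb. In cortex it was not called at -0.36, and without wild-type library 2 it was -0.57 and called.

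Col20a1, a less studied member of the class, had 863, 1080 and 1041 normalized counts in wild-type hippocampus and 719, 683 and 662 in knockout. No libraries overlapped, and the log2 fold change of -0.53 ± 0.09 (limma adjusted p = 0.00548) was kept by all 18 alternatives. Its exons overlap another gene model on the same strand by 79 bases. In cortex it lay at -0.11 and its groups overlapped.

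Col16a1, the highest of the class per kb in cortex, had 2312, 1557 and 2310 normalized counts in wild-type cortex and 2348, 2132 and 2417 in knockout. Wild-type library 2 was again the lowest, and the groups overlapped at a log2 fold change of 0.18 ± 0.16. The other uncalled members, Col9a2, Col14a1 and Col22a1, lay between -0.35 and 0.35 in cortex and between -0.67 and 0.27 in hippocampus.

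Of the 6 beaded filament collagens, the type VI chains that form microfilaments between cells and the surrounding matrix, 1 rose and 1 fell in cortex. Col6a1 had 4998, 5241 and 5292 normalized counts in wild-type cortex and 6529, 6376 and 6328 in knockout. Spread within each group was small and the groups did not overlap. The log2 fold change was 0.31 ± 0.05 (limma adjusted p = 0.0446), kept by 7 of 18 alternatives. It was lost without knockout library 1, 2 or 3 (limma adjusted p = 0.185, 0.212 and 0.218) and without wild-type library 1 or 3 (0.141 and 0.143), at changes between 0.28 and 0.32. Markers of mural cells, the pericytes and smooth muscle of vessels, gave 2 called higher and 0 lower of 12 in cortex, against 1.28% and 0.661% of all genes. Without wild-type library 2 it was 3 and 0, against 21.4% of all genes called in either direction. The mural sum was 15203 to 16491 normalized counts in wild type and 18403 to 20071 in knockout, and no marker was at 0. The part of mural cells in the Col6a1 change was not tested.

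Col6a3 (ENSMUSG00000048126, chr1:90765923-90843971, minus strand) encodes a larger chain of the same protein. It had 323, 385 and 401 normalized counts in wild-type cortex and 194, 186 and 185 in knockout. Knockout libraries were almost equal and all below wild type, at a log2 fold change of -0.96 ± 0.12 (limma adjusted p = 0.0167). The call held in 13 of 18 alternatives. It was lost without knockout library 1, 2 or 3 (-0.98, -0.95 and -0.95, limma adjusted p = 0.0758, 0.116 and 0.122) and without wild-type library 3 (-0.90, limma adjusted p = 0.0812). Col6a2, the third classical chain gene, had a log2 fold change of 0.10 in cortex and was not called.

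In hippocampus Col6a1 had 2276, 944 and 1611 normalized counts in wild type and 1022, 1222 and 1017 in knockout. Wild-type library 2 was the lowest of all 6 while wild-type libraries 1 and 3 were the highest, and the log2 fold change was -0.48 ± 0.28. Col6a2 and Col6a3 lay at -0.41 and -0.33 there. Col6a4, Col6a5 and Col6a6, which lie side by side on chromosome 9, lay between -0.37 and -0.21 in cortex and between -0.51 and -0.28 in hippocampus. None of these was called.

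The short-chain network collagens Col8a1 and Col8a2, known from the membrane under the corneal endothelium, were called in neither tissue. In hippocampus Col8a1 had 1985, 111 and 988 normalized counts in wild type and 117, 123 and 158 in knockout. Col8a2 had 2152, 305 and 1118 in wild type and 375, 290 and 347 in knockout. In both, wild-type libraries 1 and 3 were several times above the other 4 libraries, and wild-type library 2 lay with the knockout. The log2 fold changes were -2.19 ± 0.91 and -1.42 ± 0.61 (limma adjusted p = 0.112 and 0.119). Leaving out wild-type library 2 gave -3.40 and -2.21, both called, whereas leaving out wild-type library 1 gave -1.33 and -0.80, neither called.

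In cortex Col8a1 had 249, 204 and 286 normalized counts in wild type and 328, 419 and 339 in knockout, at 0.56 ± 0.16 (limma adjusted p = 0.138). No libraries overlapped and knockout library 2 was highest. Col8a2 had 222, 154 and 208 in wild-type cortex and 182, 210 and 182 in knockout, at -0.01 ± 0.17, with overlapping groups. The ratio of Col8a2 to Col8a1 was 0.892, 0.755 and 0.726 in wild-type cortex and 0.556, 0.501 and 0.536 in knockout, without overlap and not tested.

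The multiplexins Col15a1 and Col18a1 lie in the zone between basement membranes and connective tissue, and the end of the type XVIII chain is released as endostatin. Col18a1, the higher of the 2 per kb in hippocampus, had 1346, 462 and 842 normalized counts in wild-type hippocampus and 560, 587 and 572 in knockout. The lowest library was wild-type library 2, the highest were wild-type libraries 1 and 3, and the log2 fold change was -0.49 ± 0.33. Col15a1, the higher of the 2 in cortex, had 848, 667 and 889 in wild-type cortex and 869, 765 and 808 in knockout, at 0.03 ± 0.12 with overlapping groups.

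Of the 4 transmembrane collagens, 0 were called in cortex and Col25a1 fell in hippocampus. Its product is made by neurons, and its shed ectodomain is found in amyloid plaques. Col25a1 had 3633, 4720 and 4012 normalized counts in wild-type hippocampus and 2910, 2874 and 3106 in knockout. All knockout libraries were below all wild-type libraries, at a log2 fold change of -0.47 ± 0.09 (limma adjusted p = 0.00795). With the length trend removed the value was -0.09 and not called. Col25a1 was also the highest of the class per kb in cortex, where it had 2094, 1440 and 2085 in wild type and 2025, 2223 and 1968 in knockout. The groups overlapped there, at 0.16 ± 0.15.

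Col17a1, the hemidesmosome collagen of skin, had 185, 0 and 119 normalized counts in wild-type hippocampus and 9.76, 0 and 12.6 in knockout. It was high in wild-type libraries 1 and 3 alone, and its log2 fold change of -2.42 ± 1.98 was not called. Leaving out wild-type library 2 gave -4.82, called, whereas leaving out wild-type library 1 gave -1.05, not called. Col13a1 and Col23a1 lay at -0.45 and -0.59 in cortex and at -0.14 and -0.17 in hippocampus. Col23a1 had no overlap in cortex and was called lower there without wild-type library 2 (-0.65), and in hippocampus without wild-type library 2 (-0.30) but not without wild-type library 1 (-0.08).

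The last 3 members were called in neither tissue. Col7a1, the collagen of the anchoring fibrils of skin and the highest of these per kb in hippocampus, had 613, 665 and 607 normalized counts in wild-type hippocampus and 526, 643 and 523 in knockout. Col26a1, the highest of these in cortex, had 695, 680 and 652 in wild-type cortex and 795, 593 and 768 in knockout. Both overlapped between the groups, at log2 fold changes of -0.16 ± 0.10 and 0.08 ± 0.12. Col28a1 lay at -0.08 in cortex and -0.20 in hippocampus.

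Several hippocampus genes above shared 1 order, with wild-type library 1 highest of the 6 and wild-type library 3 second. This order, chosen after the values were seen, held for 22 of the 43 collagen genes (51.2%), against 9.85% of all genes tested. Of the members called lower in hippocampus, Col12a1, Col5a1 and Col5a2 had this order, and Col19a1, Col20a1, Col25a1 and Col11a1 did not. The order also held for the summed markers of choroid plexus, endothelium, mural cells and fibroblasts, and for no other summed marker list. The mural sum was 40283, 20939 and 30661 normalized counts in wild-type hippocampus and 24122 to 28280 in knockout. Of the 12 mural markers 0 were called higher and 2 lower there, and without wild-type library 2 it was 0 and 7. Of the 18 fibroblast markers 0 were higher and 2 lower without that library. Of all genes 15.1% were called lower with all libraries, and 17.6% without wild-type library 2. Ttr, the main secreted protein of the choroid plexus, had 322269, 7986 and 165256 normalized counts in wild-type hippocampus and 13343, 5087 and 8893 in knockout (log2 fold change -3.15, limma adjusted p = 0.0922). Wild-type library 2 lay within the knockout range for Ttr. The 13 markers of the list summed to 13267 to 367563 normalized counts in wild type and 9735 to 19288 in knockout, with none at 0. Of the 13, 0 were called with all libraries, at a median of -2.55. Without wild-type library 2, 13 were called lower, against 17.6% of all genes.

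Col9a3, a cartilage chain that was the highest fibril-associated collagen per kb in hippocampus, had this order too. It had 6164, 979 and 3599 normalized counts in wild-type hippocampus and 1414, 1067 and 1241 in knockout, at -1.18 ± 0.58 (limma adjusted p = 0.167). Wild-type library 2 was the lowest of the 6. In cortex Col9a3 lay at -0.01. Wild-type library 1 exceeded wild-type library 2 by 17.8 times for Col8a1, 9.01 times for Col4a3, 7.05 times for Col8a2, 6.55 times for Col4a4 and 6.29 times for Col9a3. Without wild-type library 2, 25 collagen genes were called lower in hippocampus (58.1%) and 0 higher, against 17.6% of all genes called lower in that fit. Beside the members already named with such a value, these include Col9a3 (-1.93), Col24a1 (-1.69), Col4a5 (-1.04), Col18a1 (-0.89), Col14a1 (-0.89), Col6a1 (-0.82), Col6a2 (-0.66), Col4a6 (-0.57), Col15a1 (-0.48) and Col4a1 (-0.16). Without wild-type library 1 the same 10 genes, in the same order, lay at -0.61, -0.89, -0.44, -0.12, -0.54, -0.19, -0.19, -0.28, -0.22 and -0.10, and none of them was called. In that fit 2 members were higher (Col11a2 and Col1a2, 2 of 43, against 11.7% of all genes) and 6 were lower (6 of 43, against 14.2%). The 6 were the lower members named at the outset, except Col5a2, and the members' median was -0.28. The part of choroid plexus, vessel or fibroblast tissue in these values was not tested.

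**Figure D4:**
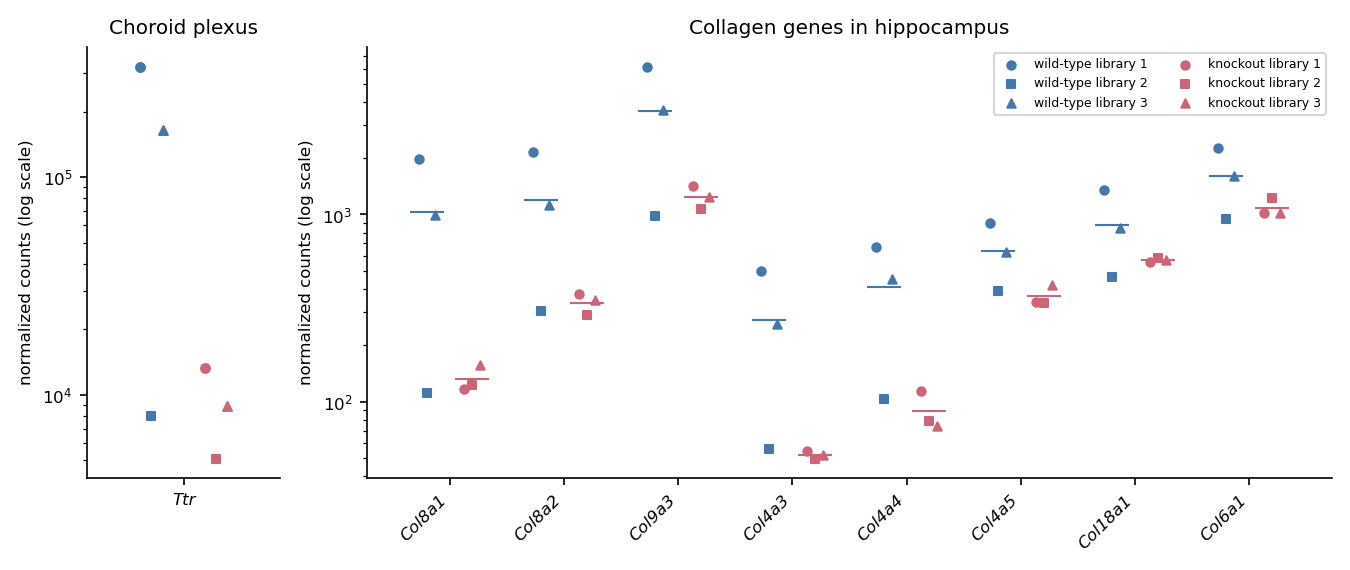
Normalized counts (log scale) of the choroid plexus marker Ttr and of 8 collagen genes in the 6 hippocampus libraries, with short lines at the group means of the collagens. In each gene wild-type library 1 (blue circle) is highest and wild-type library 3 (blue triangle) second, while wild-type library 2 (blue square) lies near the knockout libraries.

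In cortex the choroid plexus markers summed to 1660 to 1893 normalized counts in wild type and to 2787, 11973 and 7491 in knockout, highest in library 2. Of the 13 markers 1 was called higher and 0 lower, against 1.28% and 0.661% of all genes. Without wild-type library 2 it was 3 and 0, against 21.4% of all genes called in either direction. Col8a1 and Col4a3, described above, were also highest in knockout cortex library 2, whereas their partners Col8a2 and Col4a4 were highest in a wild-type library. The part of choroid plexus tissue in these cortex values was not tested.

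The hippocampus fold changes also varied with exonic length over the whole table. The median of protein-coding genes was 0.09 on the log2 scale for exons of 3 to 4 kb and -0.39 for exons of 12 to 14 kb. In cortex the medians were -0.04 for 2 to 3 kb, 0.07 for 9 to 10 kb and -0.05 for 14 to 18 kb, a rise and a fall. The collagen genes are long, with 3.10 to 15.2 kb of exon and a median of 7.62 kb, beside 4.30 kb for all protein-coding genes tested. With the trend removed, the members' hippocampus median was -0.17, beside 0.05 for all genes, and 5 members were called. Col11a2 and Col1a2 were higher (2 of 43, against 18.9% of all genes in that fit), and Col19a1, Col20a1 and Col5a1 were lower (3 of 43, against 11.3%). The cause of the length trend was not tested.

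**Figure D5:**
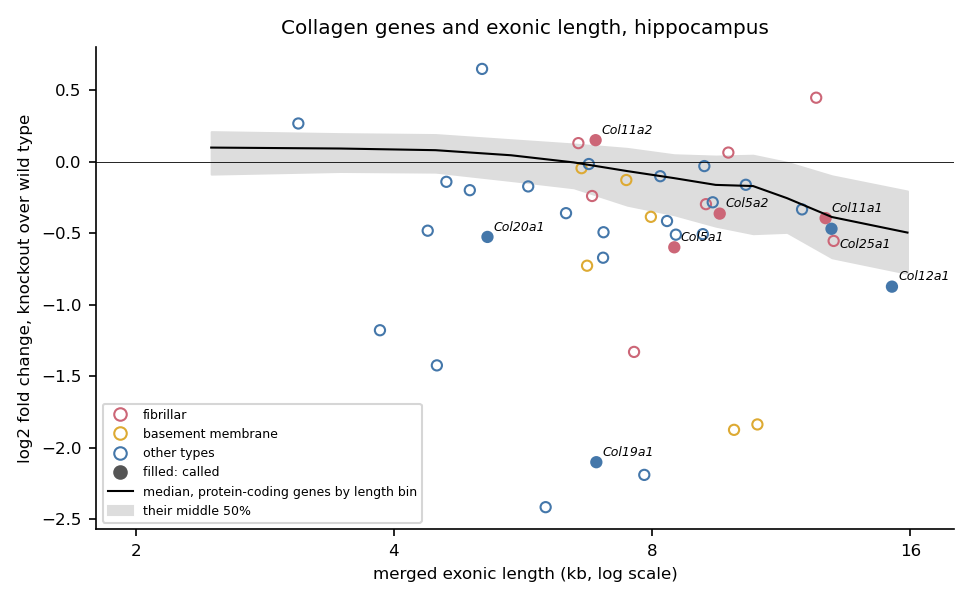
Log2 fold change in hippocampus against merged exonic length (kb, log scale) for the 43 collagen genes, with the median and the middle 50% of protein-coding genes by length bin; filled points were called. Col11a1 and Col25a1 lie within the grey band, while Col19a1, Col12a1, Col5a1 and Col20a1 lie below the grey band.

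Leaving out any other cortex library lowered the count of members called, to 0 without knockout library 3 (15 over all genes). All 4 cortex calls of the main fit were kept without wild-type library 2. Without it 11 collagen genes were called (25.6%), 3 higher and 8 lower, against 21.4% of all genes called in either direction. The 3 higher genes were again Col11a1, Col24a1 and Col6a1, at 1.13, 0.86 and 0.32. Col6a3 was joined among the lower ones by Col19a1, Col5a2, Col1a1, Col2a1, Col23a1, Col12a1 and Col5a1. The members' median was then -0.15. Without wild-type library 1 only Col11a1 (higher) and Col6a3 (lower) were called, among 112 genes called over all genes tested. None of the genes that joined Col6a3 was called in that fit.

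Counts of called genes among those that make, process or bind collagen are given next. The cortex counts are to be read against 1.28% of all genes called higher and 0.661% called lower. Of 19 genes for folding and modification of the chains, 0 were called in cortex, and 3 rose and 1 fell in hippocampus. Those with the smallest p in hippocampus were Colgalt1, a galactosyltransferase (0.15), P3h2, a prolyl 3-hydroxylase (-0.32), and Fkbp10, a chaperone (0.26). Of 13 genes for propeptide cleavage and crosslinking 0 were called in cortex and 4 fell in hippocampus, among them Adamts3 (-0.61) and Adamts2 (-0.25), which cut procollagen, and the crosslinking oxidase Loxl1 (-0.47). Of 9 receptor genes tested 0 were called in cortex, and in hippocampus 1 rose and 3 fell, the integrin chains Itga10 (-0.66), Itga2 (-1.79) and Itga1 (-0.87). The hippocampus shares are to be read against 14.1% and 15.1% of all genes called higher and lower.

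Among 16 laminins and basement membrane partners 1 rose and 6 fell in hippocampus. The smallest p there belonged to Agrn (-0.48), which encodes the proteoglycan agrin, and to the laminin chains Lama3 (-0.95) and Lama2 (-0.40). Of 8 fibril-binding proteoglycans tested, Prelp fell in both tissues (-0.58 and -0.28) and no other was called. Among 8 genes of collagen breakdown and its inhibitors, the protease gene Mmp14 fell in cortex (-0.56) and the inhibitor gene Timp1 fell in hippocampus (-1.19). Of 16 genes of TGF-beta signalling, the pathway that raises collagen synthesis in fibroblasts, 0 were called in cortex, and 2 rose and 3 fell in hippocampus. Smad4 (-0.61), the shared signal transducer, was lower there, while the target genes Ccn2 (0.71) and Smad7 (0.24) were higher.

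The hippocampus counts of lower genes without wild-type library 2 are to be read against 17.6% of all genes. They were 10 of 16 for the laminins and partners, 6 of 13 for cleavage and crosslinking and 6 of 16 for TGF-beta signalling. The receptors had 4 of 9, the fibril-binding proteoglycans 2 of 8, breakdown and its inhibitors 1 of 8 and folding 2 of 19. In cortex, without wild-type library 2, TGF-beta signalling had 3 higher and 0 lower genes, folding 2 and 1, and cleavage and crosslinking 2 and 2. The receptors had 1 and 2, breakdown and its inhibitors 1 and 3, and the proteoglycans 0 and 1. Of all genes 21.4% were called in either direction in that fit.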

How the data were processed

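The values are a signal that the authors deposited as normalized counts, 1 table per tissue with 55487 gene rows, which behaves as gene reads divided by 1 size factor per library. The submitters' processing notes name STAR, HTSeq, DESeq2 and the build GRCm38, without versions. In every library 100% of values were whole multiples of 1 step within 0.001, between 0.902 and 1.07. The read totals are estimates recovered from these steps, which lie nearest to 1 in cortex wild-type libraries 1 and 2. Identifiers were matched to GENCODE annotation of that build for 55227 rows and not for 260. Exonic length is that of all annotated exons merged.

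Genotypes were compared per tissue with limma 3.58.1 in R 4.3.3 (prior variance trend) on log2(normalized count + 1), where the mean reached 10, with Benjamini-Hochberg adjustment over all genes tested. Fold changes on that scale understate those of low genes. The interaction fit took the 12 libraries as independent. Alternatives were edgeR 4.0.16 and DESeq2 1.42.0 on recovered reads, TMM factors, quantile normalization, pseudocounts of 0.5 and 5, no filter or a minimum of 50, no variance trend, 1 fit over both tissues, a replicate block, removal of a lowess trend along exonic length, and each library left out. The length trend was fitted in each library to the deviations of all genes tested from their means (span 0.3) and subtracted before the fit. Scripts were tested on simulated data.

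The members and all lists were chosen with earlier results of these data known. Values in every library are given for called members, Col1a1, Col1a2, Col3a1, Col4a1, Col4a2 and the highest member of each class per kb. Others shown by library (Col4a3, Col4a4, Col8a1, Col17a1, and Col8a2, Col19a1 and Col24a1 outside the tissue that selected them) were chosen after their values were seen. Of each pathway list the 3 members with the smallest p could be named. The cortex result of the laminin list is not reported here. Exons of 12 members overlap another gene model, and the sources used here do not say how such reads were assigned.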

Additional observations from a re-analysis of the deposited data

Results flagged for a closer look

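The knockout effect differed between the tissues for 2 of the 43 collagen genes by the test of the difference itself, against 3.02% of all genes tested. For Col11a1 the hippocampus effect minus the cortex effect was -1.62 on the log2 scale, and the 3 knockout libraries were higher than wild type in cortex and lower in hippocampus. All 20 alternatives kept this call, between -1.68 and -1.24. For Col24a1 the difference was -2.30, with 3 of 3 knockout libraries above all wild-type libraries in cortex. In 10 of 20 alternatives that call held, between -2.68 and -1.86. It was lost without hippocampus wild-type library 1 (-1.86) or 3 (-2.37), without hippocampus knockout library 2 (-2.16) or 3 (-2.06), and without cortex knockout library 1, 2 or 3 (-2.24, -2.32 and -2.35). The call was also lost with no filter, with no prior variance trend and with the replicate block, each at -2.30. The sources used here do not say whether cortex and hippocampus libraries share animals.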

How the results depend on the processing

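Of 43 collagen genes, 4 were called in cortex, 8 in hippocampus and 2 by the interaction. Over all genes tested these fits called 426, 6513 and 642. In cortex the count of members was 9 with DESeq2 (1609 over all genes), 7 with the length trend removed (1235), 2 without the prior variance trend (86) and 0 to 11 with 1 library left out (15 to 4693), 0 without knockout library 3 and 11 without wild-type library 2. In hippocampus it was 18 with DESeq2 (6706), 5 with the length trend removed (6750) and 6 to 25 with 1 library left out (3656 to 7833), the highest without wild-type library 2. The interaction gave 7 with the length trend removed (1251), 1 without the filter (370), 1 without the variance trend (253) and 1 to 10 with 1 library left out (171 to 1965). With edgeR on recovered reads 3 members were called in cortex and 11 in hippocampus, among 446 and 6682 genes. No called member reversed its direction under these alternatives. Of the uncalled values, the sign turned for 16 genes in cortex and 10 in hippocampus under at least 1 alternative. Depth limits mainly Col17a1, at 0 in 2 hippocampus libraries. Where a replicate is left out, the group of 2 takes its spread from the whole fit.

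Within a tissue, deviations of same-numbered wild-type and knockout libraries correlated between -0.06 and 0.09, and not every library correlated best with its own number. Between cortex and hippocampus, libraries 1, 2 and 3 gave -0.01, -0.03 and 0.06 in wild type and -0.07, -0.02 and -0.09 in knockout. Whether libraries share animals is not settled by these values. With the replicate block 1 member was called in cortex, 12 in hippocampus and 1 by the interaction, among 45, 6015 and 216 genes.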
